A study of Mus musculus with 6 samples.

Results

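The MAPK phosphatases Dusp1, Dusp2, Dusp4, Dusp5 and Dusp6 and the pathway inhibitors Spry1, Spry2, Spry4, Spred1 and Spred2 were followed in mouse bone marrow 6 h after an injection of erythropoietin. The 10 genes were chosen by name. Probes were assigned to them by matching the array's transcript accessions to RefSeq, which gave 12 of the 41157 gene probes used. They covered 9 of the 10 genes, of 18209 genes with a matched probe in all, and no probe was matched to Dusp5, which was not analysed here. Of the 12 probes 6 were bright enough to test, against 19590 of all probes, and these 6 belong to 5 genes, Dusp1, Dusp2, Dusp6, Spry1 and Spry2.

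Femur marrow of ISAM mice, a model of anemia caused by too little erythropoietin, was measured on 6 one-colour Agilent arrays. Every animal, controls included, had the genotype Epo-/-::3.3K-Epo3'-Tg458 on a strain labelled Mixed, was male and was 10 weeks old. In these mice the endogenous Epo gene is lost and a single transgenic line supplies Epo under a fragment of its own regulatory region, so the comparison starts from anemic marrow and no wild-type sample was part of it. In the treated group 3 samples were taken 6 h after recombinant human erythropoietin (rHuEPO), given intraperitoneally at a dose of 3000 U/kg. Of the 3 controls, 2 came 6 h after the same kind of injection of phosphate-buffered saline (PBS) and the third was untreated. Replicates are numbered in the labels but not said to be separate animals. Every p-value therefore reflects the spread of these particular samples, which may be technical.

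Mitogen-activated protein kinases (MAPKs) carry signals from cytokine and growth factor receptors through RAS, RAF and MEK to ERK, and in parallel branches to JNK and p38. Dual-specificity phosphatases of the Dusp family remove the activating phosphates from MAPKs, and several of their genes are switched on by the kinases they later silence. Sprouty proteins interfere with the pathway between the receptor and RAF, and Spred proteins recruit the RAS inactivator neurofibromin to the membrane. Erythropoietin activates this pathway next to JAK2 and STAT5, and transcripts of these inhibitors are commonly read as a record of recent ERK activity.

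The promoters of Dusp1 and Dusp2 are shown because these were the 2 members whose levels spread most widely over the arrays. The windows are the 250 bases before the RefSeq start, in GRCm38.p6, written 5′ to 3′ on the gene's strand. Dusp1 lies on the minus strand at chr17:26508473-26508722, and capitals mark the letters TGACG, the core of the cyclic AMP response element (CRE), on either strand. Dusp2 lies on the plus strand at chr2:127335909-127336158, and capitals mark the EGR-type letters GCGNGGGCG.
Dusp1: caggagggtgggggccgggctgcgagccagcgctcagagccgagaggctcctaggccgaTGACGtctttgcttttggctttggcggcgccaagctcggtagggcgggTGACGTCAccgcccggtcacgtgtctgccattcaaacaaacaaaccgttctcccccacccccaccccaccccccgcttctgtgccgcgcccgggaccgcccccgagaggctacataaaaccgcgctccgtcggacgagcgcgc
Dusp2: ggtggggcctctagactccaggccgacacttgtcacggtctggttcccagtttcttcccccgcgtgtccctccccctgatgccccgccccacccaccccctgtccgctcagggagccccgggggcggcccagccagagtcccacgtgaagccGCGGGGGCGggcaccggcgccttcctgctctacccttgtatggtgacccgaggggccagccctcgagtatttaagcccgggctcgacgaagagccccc
In Dusp1 a core began at position -191 relative to the start, and a full CRE, TGACGTCA, ran from -143 to -136 and holds 2 overlapping cores, 1 on each strand. The full CRE was present in 1.55% and the core in 17.8% of 32851 RefSeq promoter windows of this length. The Dusp2 match ran from -98 to -90, and such letters were present in 4.7% of the windows. Of the 10 genes 8 had a window in the table, all but Dusp4 and Spry4. The STAT letters TTCNNNGAA and the AP-1 letters TGANTCA, searched on both strands, matched none of these 8 windows, against 7.02% and 6.75% of all windows. The letters TATAAA also matched none of the 8, against 12.4%. The CArG box, the binding sequence of serum response factor, matched at 2 places in Dusp5, from -82 to -73 and from -72 to -63, and in no other member, against 1.47% of all windows. A match is a description of the letters and not evidence that a factor binds there.

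No MAPK phosphatase or Sprouty transcript passed the test after rHuEPO. Limma with Benjamini-Hochberg adjustment over all tested probes called 0 of the 6 member probes, and 0 of the 6 had an unadjusted p under 0.05. Over all probes 11 of 19590 were called, 0.0562%, and 4.52% had an unadjusted p under 0.05. Levels are given as log2 of the processed signal over the array's 75th percentile, so that 0 is the brightness below which 75% of gene spots lie on that array, and differences are rHuEPO minus control on this scale. The median difference of the 5 genes, each read by its brightest tested probe, was 0.044, and that of all tested probes was -0.014. Of the 5 genes 3 lay above 0. On none of the 6 probes did the 3 rHuEPO arrays separate from the 3 controls, which 9.84% of all tested probes did in one direction or the other. In bulk marrow, fewer cells of a type and less RNA per cell cannot be told apart.

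**Figure D1:**
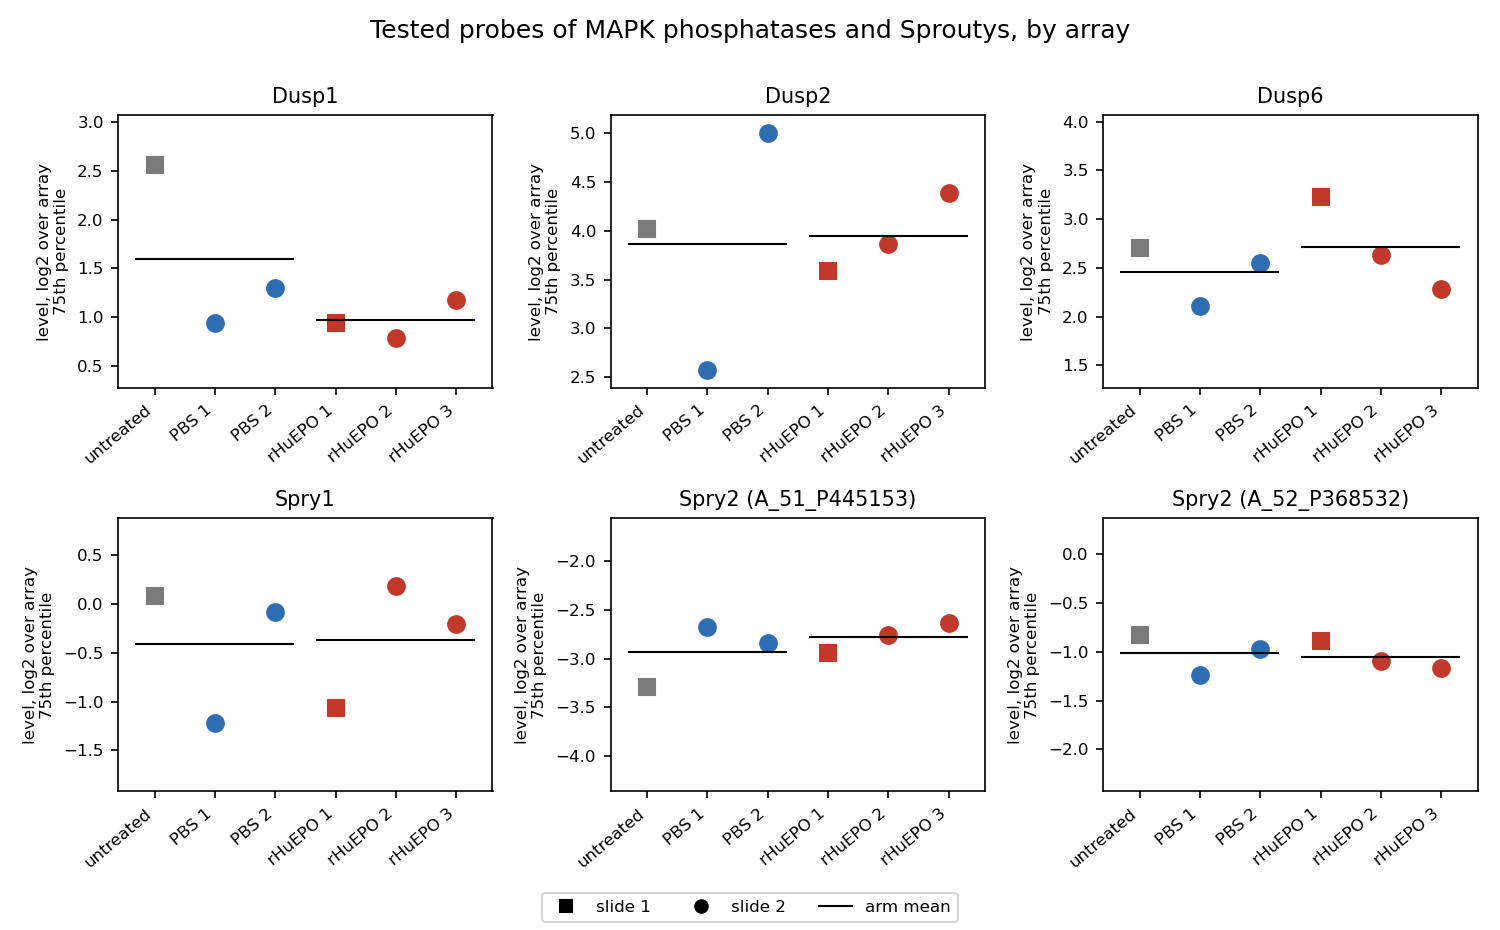
Level of each tested probe on each array, as log2 of the processed signal over the array's 75th percentile, in panels that share 1 span of the vertical axis but not its position. Points are single arrays (grey untreated, blue PBS, red rHuEPO; squares slide 1, circles slide 2) and black lines are the means of the 3 control and the 3 rHuEPO arrays. Dusp1 stands at 2.56 on the untreated array and between 0.79 and 1.30 on the other arrays, and Dusp2 spans the 2 PBS arrays, from 2.57 to 5.0.

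Dusp1 encodes a nuclear phosphatase that acts on p38, JNK and ERK and is induced within minutes by many stimuli. Its level was 2.56 on the untreated array, 0.94 and 1.30 on the PBS arrays, and 0.94, 0.79 and 1.17 on the rHuEPO arrays. The untreated array stood apart, and the 5 arrays of injected animals lay within 0.51 of each other, with rHuEPO and PBS overlapping. The control mean was 1.60 ± 0.85 (SD, n = 3) and the rHuEPO mean 0.97 ± 0.20 (SD, n = 3). The difference was -0.63 ± 0.41 (SE, 3 against 3 arrays; limma adjusted p = 1.00), with a 95% interval from -1.58 to 0.32. This value rested on the untreated array: against PBS alone, in a fit of the 3 groups, the difference was -0.15 ± 0.23 (SE; limma adjusted p = 0.999), with an interval from -0.70 to 0.40. Within slide 1, which holds the untreated array and rHuEPO replicate 1, it was -1.62, and within slide 2, which holds the other 4 arrays, it was -0.14.

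Dusp1 was also the member that differed most between the 2 kinds of control. The untreated array lay 1.44 ± 0.31 (SE, 1 against 2 arrays) above PBS, a 2.72-fold difference, with a 95% interval from 0.70 to 2.18 and an unadjusted p of 0.00267. After adjustment over all probes the limma p was 0.668, so the difference did not pass. With 1 untreated array this test assumes that it varies like the other groups. Limma called 0 of 19590 probes between untreated and PBS, 0%, and 5.36% had an unadjusted p under 0.05, among them 1 of the 6 member probes. Over all probes the untreated array was above all 5 others on 17.5% of tested probes and below all 5 on 26.3%. Were the 6 arrays alike, each would be highest on about 1 in 6 probes and lowest on as many. The share above is near that, so it does not set the untreated array apart, and these shares were not computed for the other arrays. A lead of at least 1 log2 unit over all 5 was seen on 32 probes, 0.163%, of which Dusp1, with 1.26, is 1; that limit was set after its value was seen. Slide and treatment cannot be told apart for the untreated array alone. On the same slide rHuEPO replicate 1, which differs from the untreated array in treatment too, read 0.94.

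The genes most like Dusp1 over the 6 arrays were Ak1, the adenylate kinase that balances adenine nucleotides, Trib1, a pseudokinase that steers protein degradation, and Cd59a, a complement inhibitor. They were the 3 of 3127 genes, among those with a range of at least 1, with the highest Pearson correlation, at 0.997, 0.997 and 0.982. All 6 arrays are shared by these values, and the choice of the highest among so many makes them a description. Trib1 read 2.27 on the untreated array, 1.22 and 1.50 on the PBS arrays and 1.28, 1.17 and 1.35 on the rHuEPO arrays. Cd59a read 1.90 on the untreated array and between 0.28 and 0.65 on the other 5. As for Dusp1, the untreated array alone set the range.

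Dusp2, first known as PAC1, encodes a nuclear phosphatase of activated blood cells. Its level was 4.02 on the untreated array, 2.57 and 5.0 on the PBS arrays, and 3.59, 3.86 and 4.39 on the rHuEPO arrays. The lowest and the highest reading of all 6 were the 2 PBS arrays, which differed 5.38-fold, and the rHuEPO arrays lay between them. The means were 3.86 ± 1.22 (SD, n = 3) for controls and 3.95 ± 0.40 (SD, n = 3) for rHuEPO. The difference was 0.081 ± 0.57 (SE; limma adjusted p = 1.00), with a 95% interval from -1.26 to 1.42, so neither a fall nor a rise of 2-fold lies outside it. Its sign turned with single arrays, to -0.56 without PBS replicate 1 and -0.14 without rHuEPO replicate 3, and it was 0.65 without PBS replicate 2. It was -0.43 within slide 1 and 0.34 within slide 2. Against PBS alone it was 0.16 ± 0.67 (SE; limma adjusted p = 0.999).

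The spread of Dusp2 over the arrays ran with that of B-lineage genes, though not of these alone. Its range of 2.43 was wider than that of 97.5% of tested probes, for which the median range was 0.78. The 3 genes most like it by the same measure were Ly6d, a surface protein of lymphoid precursors, Zfp428, a zinc finger gene, and Tnfrsf13c, the BAFF receptor of B cells, with Pearson correlations of 0.989, 0.989 and 0.986 over the 6 arrays. Tnfrsf13c read 2.23 on the untreated array, 0.92 and 3.21 on the PBS arrays and 2.18, 2.26 and 2.72 on the rHuEPO arrays. Among 9 tested B-lineage markers all 9 were lowest on PBS replicate 1, and 7 were highest on PBS replicate 2 and 2 on the untreated array. From PBS replicate 1 to replicate 2 these markers differed by 1.78 to 3.25, with a median of 2.47, against 2.43 for Dusp2. Epha2, an ERK output gene (1.79), and Jund, an immediate-early gene (0.93), were also lowest on PBS replicate 1 and highest on PBS replicate 2. Other genes of those 2 kinds went down between these arrays, such as Mcl1 (-0.38) and Klf6 (-0.48). The summed level of the B-lineage markers, in units of the 75th percentile signal, was 50.2 and 285.5 on the PBS arrays. It was 169.3 on the untreated array and 127.3, 103.2 and 129.5 on the rHuEPO arrays.

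Within the rHuEPO group Dusp2 was lowest on replicate 1 and highest on replicate 3. Of the 9 markers 6 were highest there on replicate 1 and 3 on replicate 3, and 1 had the same order of the 3 arrays as Dusp2. Ebf1, a transcription factor that commits cells to the B lineage, was among the 6 and read -1.02, -2.05 and -1.73. The summed marker level was highest on replicate 3, as Dusp2 was, and Tnfrsf13c had the order of Dusp2. No defining B-lineage marker that was matched was too dim to test. The part of the B-lineage share of the marrow in the Dusp2 readings was not tested.

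**Figure D2:**
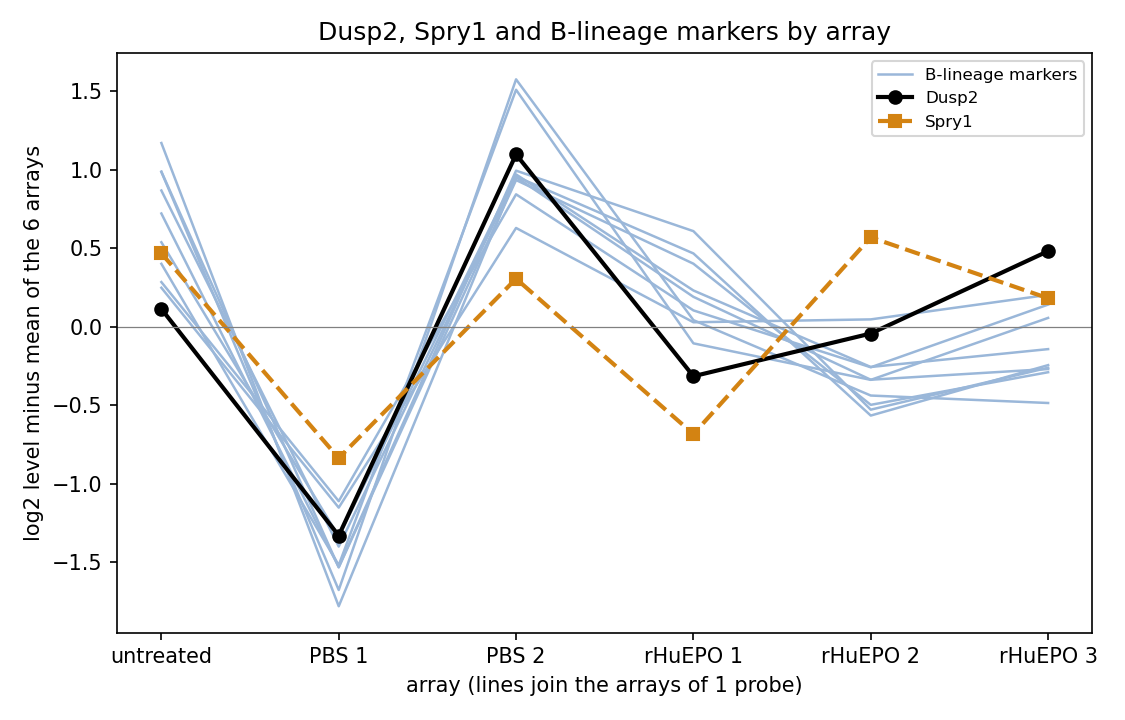
Log2 level minus its mean over the 6 arrays, by array, for Dusp2 (black), Spry1 (orange, dashed) and the 9 B-lineage markers (blue); a line joins the readings of 1 probe and has no time order. Dusp2 and all 9 markers are lowest on PBS replicate 1, where Spry1 is lowest too, and Dusp2 is highest on PBS replicate 2.

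Dusp6 encodes a cytoplasmic phosphatase specific for ERK, and its transcript is among the usual readouts of ERK activity. Its level was 2.70 on the untreated array, 2.11 and 2.55 on the PBS arrays, and 3.23, 2.63 and 2.28 on the rHuEPO arrays. rHuEPO replicate 1 was the highest of all, and rHuEPO replicate 3 lay below 2 of the 3 controls. The means were 2.45 ± 0.31 (SD, n = 3) and 2.71 ± 0.48 (SD, n = 3). The difference of 0.26 ± 0.29 (SE; limma adjusted p = 1.00) was the largest positive value among the members, with a 95% interval from -0.42 to 0.94. It rested on rHuEPO replicate 1, without which it was 0.00058, and it was 0.085 without PBS replicate 1 and 0.47 without rHuEPO replicate 3. It was 0.52 within slide 1 and 0.12 within slide 2. Against PBS alone it was 0.38 ± 0.32 (SE; limma adjusted p = 0.999), a 1.30-fold difference.

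Spry1, a Sprouty gene active in many cell types, was read by 1 probe. Its level was 0.080 on the untreated array, -1.22 and -0.082 on the PBS arrays, and -1.07, 0.18 and -0.21 on the rHuEPO arrays. One array of each arm, PBS replicate 1 and rHuEPO replicate 1, was low, and the other 4 lay together near 0. The means were -0.41 ± 0.71 (SD, n = 3) and -0.36 ± 0.64 (SD, n = 3), and the difference was 0.044 ± 0.44 (SE; limma adjusted p = 1.00), with a 95% interval from -0.98 to 1.07. It was -1.15 within slide 1 and 0.64 within slide 2, so the slides disagreed in sign. Leaving out PBS replicate 1 turned it to -0.36. Among the rHuEPO arrays, leaving out replicate 1, 2 or 3 gave 0.40, -0.23 and -0.036. Against PBS alone it was 0.29 ± 0.47 (SE; limma adjusted p = 0.999).

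Spry2, which like Spry1 is induced by growth factor signals and holds back RAS and RAF, was read by 2 tested probes. Probe A_52_P368532 read -0.83 on the untreated array, -1.24 and -0.97 on the PBS arrays, and -0.89, -1.09 and -1.17 on the rHuEPO arrays. Probe A_51_P445153 read -3.29 on the untreated array, -2.67 and -2.84 on the PBS arrays, and -2.94, -2.76 and -2.63 on the rHuEPO arrays. The 2 probes ran against each other: the first was highest and the second lowest on the untreated array, and within PBS and within rHuEPO their order of arrays was opposite. The differences were -0.040 ± 0.19 and 0.15 ± 0.22 (SE; limma adjusted p = 1.00 for both), with 95% intervals from -0.48 to 0.40 and from -0.35 to 0.66. Against PBS alone they were 0.052 ± 0.21 and -0.022 ± 0.21 (SE; limma adjusted p = 0.999 for both), so each sign turned without the untreated array. The first also turned to 0.019 without rHuEPO replicate 3. Of the tested members Spry2 varied least, with ranges over the arrays of 0.41 and 0.65 that lay below the median range of all probes.

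**Figure D3:**
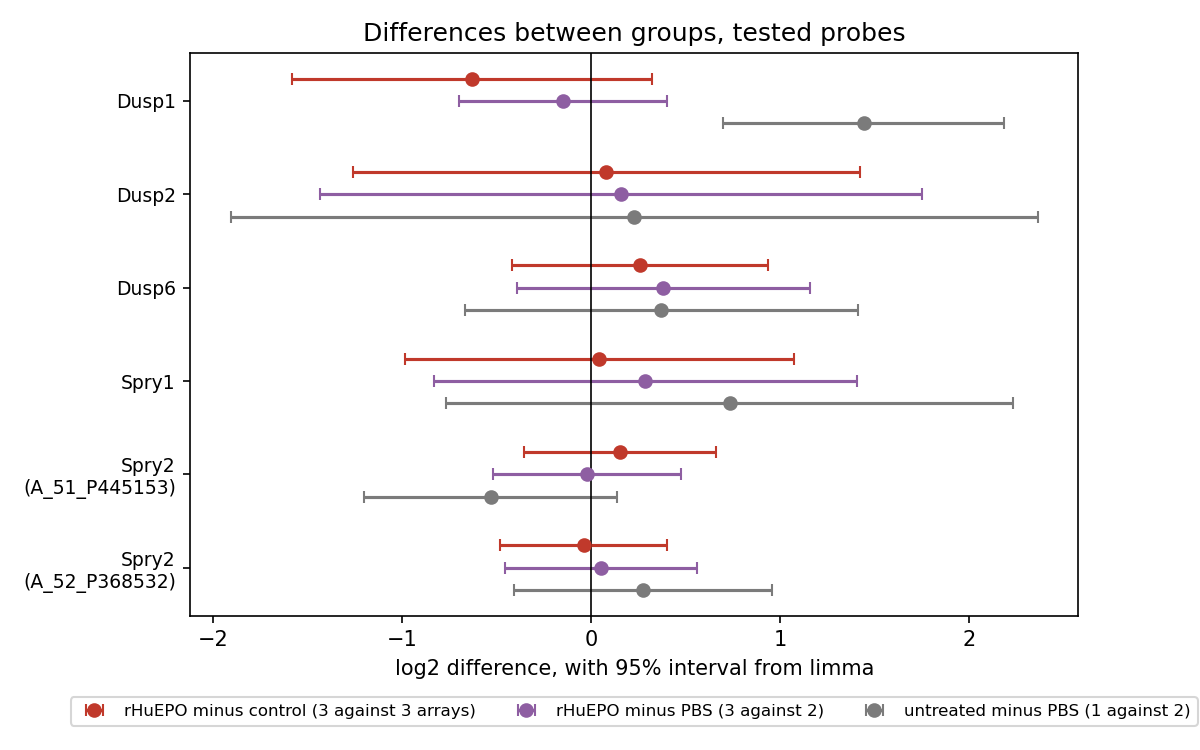
Log2 difference and its 95% interval from limma for each tested probe, in 3 comparisons: rHuEPO minus control (red), rHuEPO minus PBS (purple) and untreated minus PBS (grey, 1 untreated array). Every interval spans 0 except that of Dusp1 between untreated and PBS, from 0.70 to 2.18, which has an adjusted p of 0.668; the first 2 comparisons share the rHuEPO and PBS arrays.

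Set side by side, rHuEPO against PBS gave 0 calls among the 6 member probes by limma, against 0.0204% of all probes, and 0 had an unadjusted p under 0.05, against 3.61% of all. The median difference of the 5 genes was 0.16 there and -0.044 over all probes. The intervals show what could not be seen: for Dusp1, Dusp2 and Spry1 the rHuEPO against control interval reaches beyond a 2-fold change in at least one direction, while for both Spry2 probes and for Dusp6 it ends short of 2-fold on both sides. Against PBS alone Dusp1 and Dusp6 change places. The Dusp6 interval there, from -0.39 to 1.16, reaches beyond 2-fold, and the Dusp1 interval, from -0.70 to 0.40, does not.

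Dusp4, a nuclear phosphatase of ERK and JNK, Spry4, Spred1 and Spred2 were too dim to test. Together they had 6 probes, of which 5 were not well above background on any array, with readings between -6.00 and -4.37. Dusp4 read -5.19 on the untreated array, -5.66 and -5.80 on the PBS arrays and -5.38, -4.84 and -4.39 on the rHuEPO arrays, none of them well above background. Of the 2 Spred1 probes, A_52_P637689 was well above background on the untreated array alone, at -3.65, and read -4.20 and -4.26 on the PBS arrays and -3.50, -3.90 and -4.83 on the rHuEPO arrays. The Spred2 probe and 1 of the 2 Spry4 probes had all 3 rHuEPO readings above all 3 control readings, by readings that are background. The negative control spots differed the same way between the arms, with medians of 4.73 to 5.51 signal units for rHuEPO and 3.74 to 4.03 for control arrays. No fold is given for these 4 genes.

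**Figure D4:**
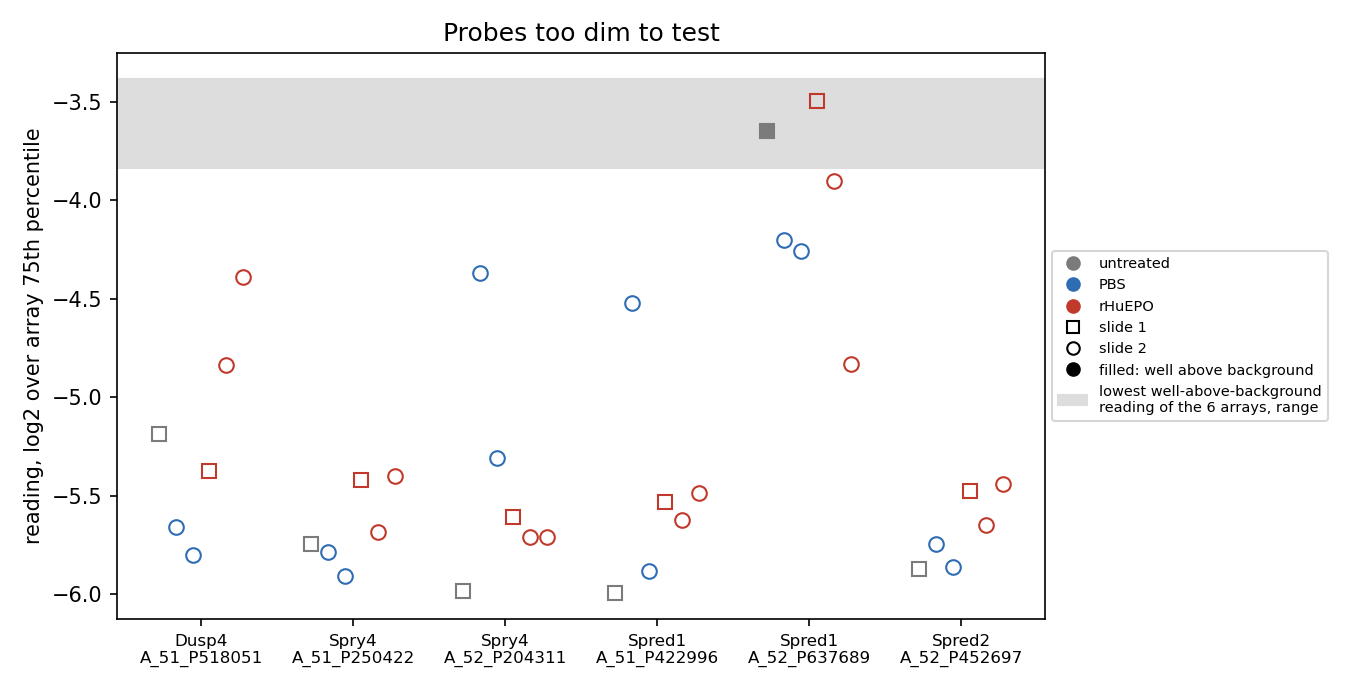
Readings of the 6 probes too dim to test, as log2 over the array's 75th percentile, 1 point per array in the order untreated, PBS 1 and 2, rHuEPO 1 to 3; filled points are well above background, and the grey band spans the lowest well-above-background reading of each array. The 1 filled point is Spred1 probe A_52_P637689 on the untreated array, at -3.65.

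The other genes of the pathway were read through 9 lists with 140 genes, of which 116 were tested. Limma called 2 of the 116 higher after rHuEPO and 0 lower, against 11 of 19590 over all probes, 0.0562%. Both, Erfe and Cish, belong to the JAK2-STAT5 target list, which was chosen with earlier results of these data known. Cish, the STAT5-induced receptor inhibitor, read -0.31 on the untreated array, 0.66 and 0.61 on the PBS arrays, and 4.23, 4.47 and 4.75 on the rHuEPO arrays. Every rHuEPO array lay above every control, as on 4.97% of all tested probes, with a difference of 4.16 ± 0.30 (SE; limma adjusted p = 0.0116). Erfe, the erythroid hormone erythroferrone, was well above background on the rHuEPO arrays alone, so it entered the test only through the group where it is high. Next in that list was the transferrin receptor Tfrc, at 0.97 ± 0.20 (limma adjusted p = 0.534). All 10 tested genes of that list lay above 0, as 47.7% of all tested probes did, with a median difference of 0.68 and a lowest of 0.011. Against PBS 9 of the 10 did. As the list was chosen with earlier results known and holds Erfe, these counts describe it and do not test it. The inhibitors Socs3 (0.96 ± 0.41) and Socs2 (0.39 ± 0.56) did not pass, and on both the arms overlapped. A call on a change as large as that of Cish does not show that smaller changes in the MAPK inhibitors could be seen.

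Further phosphatases and family members outside the 10 gave 0 calls among 7 tested of 11 listed, with a median difference of 0.018. Dusp8, a phosphatase of JNK and p38, had the smallest p of them. It read -1.04 on the untreated array, -1.70 and -0.45 on the PBS arrays, and -0.42, -0.24 and 0.31 on the rHuEPO arrays. Every rHuEPO array lay above every control, as on 4.97% of all tested probes, by a narrow gap, and the difference of 0.95 ± 0.35 (SE; limma adjusted p = 1.00) did not pass. The differences of Dusp10, which acts on JNK and p38, and of Dusp22 were -0.27 ± 0.33 and -0.21 ± 0.29. Among other ERK feedback inhibitors 0 of 10 tested were called and 3 lay above 0, with a median of -0.20. They were led by the RAS inactivators Rasa1 (-0.35 ± 0.17) and Rasa3 (-0.28 ± 0.18) and by the receptor inhibitor Errfi1 (-0.70 ± 0.47). On Rasa1 every rHuEPO array lay below every control, as on 4.86% of all tested probes. Errfi1, like Dusp1, was highest on the untreated array, at 0.16, with -1.23 and -0.98 on the PBS arrays.

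Upstream, 0 of 15 tested receptors and adaptors were called and their median was -0.066. The erythropoietin receptor Epor had a difference of 0.31 ± 0.24, its kinase Jak2 of -0.21 ± 0.29 and the adaptor Shc1 of -0.15 ± 0.16. In the RAS, RAF, MEK and ERK list 0 of 21 were called, 10 lay above 0 and the median was -0.026, with Hras at 0.30 ± 0.21, the scaffold Lamtor3 at 0.25 ± 0.18 and Braf at -0.26 ± 0.19. In the JNK and p38 branches 0 of 17 were called. Map2k3, a kinase that activates p38, read 0.72 on the untreated array, 0.79 and 0.77 on the PBS arrays and 1.61, 1.38 and 1.56 on the rHuEPO arrays. Every rHuEPO array lay above every control, as on 4.97% of all tested probes, and the spread within the groups was small. The Map2k3 difference of 0.75 ± 0.16 (SE) had a limma adjusted p of 0.622. The next in that list were Mapk12 at 0.36 ± 0.29 and Mapk9 at -0.30 ± 0.25.

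Downstream, 0 of 8 tested ERK output genes were called, 2 lay above 0 and the median was -0.25. The ERK-regulated repressor Elk3 had a difference of -0.35 ± 0.19, the growth regulator Myc of 0.55 ± 0.41 and the membrane protein Emp1 of -0.39 ± 0.31. On Elk3 every rHuEPO array lay below every control, by a narrow gap, as on 4.86% of all tested probes. Immediate-early genes, which serum and cytokines induce with the phosphatases, gave 0 calls among 19 tested, 11 above 0 and a median of 0.10. Egr1, a transcription factor of that kind, read -1.86 on the untreated array, -3.70 and -0.79 on the PBS arrays and 0.89, 0.83 and 1.01 on the rHuEPO arrays. Its groups did not overlap, but it was not well above background on PBS replicate 1, and its difference of 3.03 ± 0.65 had a limma adjusted p of 0.605. Maff (1.29 ± 0.34), the nuclear receptor Nr4a1 (0.62 ± 0.23) and Jun (0.47 ± 0.26) did not pass either. With Egr1 they were the 4 of 19 on which every rHuEPO array lay above every control, as on 4.97% of all tested probes. On Dusp1 and Dusp2 the arms overlapped.

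Glucocorticoid response genes were included because Dusp1 is also a glucocorticoid target. None of the 9 tested was called, 2 lay above 0 and the median was -0.58, against -0.014 over all tested probes. The circadian and glucocorticoid-induced gene Per1 read 2.40 on the untreated array, 2.75 and 2.32 on the PBS arrays and 0.64, 1.59 and 2.02 on the rHuEPO arrays. Its difference was -1.08 ± 0.35 (SE; limma adjusted p = 0.971). Fkbp5, a chaperone of the glucocorticoid receptor, had a difference of -1.01 ± 0.35 (SE; limma adjusted p = 0.978). On both every rHuEPO array lay below every control, as on 4.86% of tested probes. The size of the fall depended on the slide. Within slide 1 and slide 2 it was -1.76 and -0.73 for Per1 and -1.54 and -0.74 for Fkbp5. It was -1.33 and -0.20 for Tsc22d3 and -1.81 and -0.014 for Ddit4, while Nfkbia had 0.22 and -0.28. Not every gene of the list fell: Cebpd had 0.096 and 0.013, Klf9 0.038 and 0.028, and Sgk1 0.089 and -0.075. The cell cycle inhibitor Cdkn1c was well above background on the 3 controls but on only 1 of the 3 rHuEPO arrays, so its fitted difference of -0.75 ± 0.20 (limma adjusted p = 0.808) rests in part on background readings. On Dusp1 the PBS and rHuEPO readings overlapped.

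As facts of the whole set, the 75th percentile signal was 220.7 to 264.0 units and no gene spot was saturated. Between 46.2% and 50.5% of gene spots were well above background, fewer on the rHuEPO arrays (at most 46.6%) than on the controls (at least 48.6%). Precision was limited by there being 6 arrays. Neither of the 2 Epo probes was well above background on any array, which cannot test the genotype without a wild-type sample. Of 79 matched markers of marrow cell types 78 were tested and 1, the T-cell gene Cd4, was too dim on every array; erythroid, neutrophil and B-lineage markers were all detected in the labelled marrow. Summed neutrophil markers ranged over 2131 to 2881 after rHuEPO and 2175 to 3020 in controls, and summed erythroid markers over 2090 to 2461 and 2094 to 2393. Such sums are set by the brightest genes. Of 12 erythroid markers 9 lay above 0 against control (median 0.37) and 11 against PBS (median 0.42), and 0 were called. Of 11 neutrophil markers 6 lay above 0 against control (median 0.0064) and 0 against PBS (median -0.12).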

How the data were processed

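Cy3-labelled RNA of each sample was hybridised to its own array by the authors, as the labels' protocols describe. The authors deposited scanner output with an intensity for every spot, which the headers attribute to Agilent Feature Extraction 10.7.3.1. How the authors made the deposited table of log2 values is not stated in the labels used here. Set against the scanner values, it matched 75th percentile scaling with each probe centred on its median (slopes 0.9988 to 1.001), so scale, centring and direction are known, and it served as an alternative. Its column medians were -0.103 (untreated), -0.0569 and -0.0976 (PBS) and 0.117, 0.0111 and 0.0867 (rHuEPO).

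Processed signals were divided by their 75th percentile among gene spots on each array and taken to log2. Control spots (1639) and outlier spots did not enter, repeated spots were averaged to probes, and 17 probes lacking a value on some array were dropped. A probe was tested when well above background (a share of at least 0.5 of its spots) on at least 3 arrays. Names came from matching accessions to RefSeq (GRCm38.p6), which 64.8% of probes did; the array design names another build. Limma 3.58.1 in R 4.3.3 (lmFit, eBayes, two-sided, Benjamini-Hochberg over 19590 probes, threshold 0.05) compared 3 rHuEPO with 3 control arrays, and the 3 groups in 1 fit. The test was tested on simulated data. Intervals are 95%. All members were named, and from each pathway list the 3 genes with the smallest p and any called. Some further genes of these lists, such as Socs3, Jun and Ddit4, were named outside that rule, by choice. Members and lists were chosen with earlier results of these data known. Alternatives changed the scaling, background, dim-probe filter, controls, slide and array weighting, or left out single arrays. Arrays correlated between 0.96 and 0.9911. Each was treated as a separate sample, which such correlations cannot show, as technical repeats could correlate as highly.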

Additional observations from a re-analysis of the deposited data

How the results depend on the processing

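Over 19 alternatives limma called 0 member probes between rHuEPO and control, and 0 between rHuEPO and PBS over 16 and between untreated and PBS over 15. The count over all probes, 11, was 1 with normexp on median signals (mean signals were not used here) and 1 with the replicate block, 2 with no filter on dim probes, 4 with all 6 arrays well above background, with PBS as the only control and in slide 2 alone, 26 with array weights, and 2 to 7 with 1 array left out. It was 13 with slide as a block. The alternatives are not all separate checks. PBS as the only control and leaving out the untreated array are the same fit. Against PBS, leaving out the untreated array gave the main counts again, and slide as a block gave those of leaving out rHuEPO replicate 1.

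The median difference of the 5 genes, 0.044, was -0.43 in slide 1 alone and -0.36 to 0.21 with 1 array left out. Dusp1 stayed below 0 and Dusp6 above 0 in all 19, with adjusted p from 0.526 and 0.674 upwards. Most of these keep the untreated array, on which the Dusp1 value rested. Against PBS, over 16 alternatives, Dusp1 ran from -0.33 to 0.23, so its sign turned, and Dusp6 from 0.12 to 0.96. Against control, Dusp2 turned to -0.0018 with quantile normalization, -0.36 with array weights and -0.32 with the replicate block (-0.56 to 0.65 with 1 array left out). Spry1 turned to -0.023 with normexp and -0.17 with the replicate block (-0.36 to 0.40). Spry2 turned to -0.39 with normexp and -0.022 with PBS as the only control (A_51_P445153; -0.022 to 0.29). A_52_P368532 turned to 0.035 with median scaling, 0.052 with PBS as the only control and 0.027 with the replicate block (-0.15 to 0.052). The causes were not tested.

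Replicate numbers mark no known pairing. Deviations of same-numbered PBS and rHuEPO arrays correlated at -0.0393 and -0.123, and the replicate block changed no call among the members. Median scaling moved the median over all probes of untreated minus PBS from -0.081 to -0.21. Dim signal limits Dusp4, Spry4, Spred1 and Spred2.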
